A study of Mus musculus with 56 samples.

Results

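The 9 mouse genes described here encode surface proteins that restrain T cells: Pdcd1 (PD-1), Ctla4, Lag3, Havcr2 (TIM-3), Tigit, Btla, Cd160, Cd200 and Cd5. They were picked by name, as known coinhibitory genes, with earlier results of these data known. The count table of experiment 1 holds 19791 gene symbols and that of experiment 2 holds 24421. Each of the 9 is listed once in both tables. In each of them 7 had at least 10 counts over all libraries, and 6 passed the filter on low counts and were tested. Lag3 and Tigit were under 10 counts in experiment 1, as were Havcr2 and Tigit in experiment 2, and they were skipped there. Havcr2 in experiment 1 and Cd160 in experiment 2 did not pass the filter and are given as counts.

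T cells need a signal through the antigen receptor and a second one through costimulatory receptors such as CD28. Coinhibitory receptors appear on the surface after activation, bind ligands on neighbouring cells and damp the same signalling chain, in part by recruiting phosphatases. PD-1 binds PD-L1 and PD-L2, CTLA-4 competes with CD28 for CD80 and CD86, LAG-3 binds MHC class II and other ligands, and BTLA and CD160 both bind the TNF receptor family member HVEM. CD200 is itself a ligand, for the inhibitory receptor CD200R, and CD5 is a scavenger-type receptor that tunes antigen receptor signalling and is present on resting T cells already.

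Messenger RNA was measured in spleen CD4 T cells of C57BL/6 mice by sequencing of 3′ transcript ends, and the submitters ask how cell concentration in culture bears on early memory differentiation. All cultures were stimulated with beads coated with anti-CD3 and anti-CD28 in complete RPMI and received no cytokines. Experiment 2 has 38 libraries in 13 groups. Its activated groups were sorted CD4 positive cells taken at 18, 30, 48 and 72 h from cultures started at a high (1000000 cells per ml) or low (62500 cells per ml) concentration, and CD44 positive cells sorted as CD62L positive or CD62L negative at 48 and 72 h from cultures started at 250000 cells per ml. Its unactivated group was sorted naive cells (CD44 negative, CD62L positive). Experiment 1 has 18 libraries in 6 groups: activated cells from cultures of 250000 cells per ml, divided by CD62L into positive and negative sorts at the same times, unactivated mature cells (CD44 positive and lacking CD62L) and unactivated naive cells. The unactivated cells of experiment 1 were enriched on magnetic columns (MACS) and not sorted. There are 3 libraries to a group, but 2 for low-concentration cells at 72 h. The labels do not say whether libraries of a group came from separate mice or cultures, so the tests measure only the spread between these libraries.

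Library totals ran from 58750 to 1738555 counts in experiment 1, where the 3 naive libraries had 58750, 249838 and 336355, and from 587118 to 3359875 in experiment 2. Levels are CPM (a library's counts scaled to a common total) after TMM scaling of each table on its own, so a level in one table is not on the scale of the other. Ribosomal protein genes held 0.646 to 1.18% of a library's counts in experiment 1 and 21.1 to 37.8% in experiment 2. The tables thus differ in make-up as well as in scale, and the cause was not tested. Transcripts were counted at their 3′ ends and not per length, so no level is compared between genes. Differences are log2 ± SE from edgeR's quasi-likelihood test, where the SE restates the test statistic. "Rose" and "fell" are used where the Benjamini-Hochberg adjusted p over all genes of the table was under 0.05. Markers of T cells were present in every group (6 of 6 with counts). In experiment 1 the unactivated cells also carried markers of B cells, myeloid cells and CD8 T or NK cells, and those values stand beside the results they touch. In experiment 2 the titles also end in a 1 or a 2, called the second number below because no source says what it stands for.

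Promoter sequences of 3 of the genes are shown because their levels give the main patterns: Pdcd1 and Cd200, which fell together in CD62L positive cells, and Ctla4, which rose at 18 h with them and was called higher in CD62L positive cells in experiment 1. Each runs 5′ to 3′ on the gene's strand, from 250 bases before to 50 after the annotated start, from RefSeq on build GRCm38.p6. Pdcd1 is at chr1:94052504-94052803 (minus strand), Cd200 at chr16:45409004-45409303 (minus strand) and Ctla4 at chr1:60908775-60909074 (plus strand). Capitals mark the core GGAAA bound by NFAT, a calcium-activated factor of T cells, found on either strand (TTTCC is its reverse complement).
Pdcd1: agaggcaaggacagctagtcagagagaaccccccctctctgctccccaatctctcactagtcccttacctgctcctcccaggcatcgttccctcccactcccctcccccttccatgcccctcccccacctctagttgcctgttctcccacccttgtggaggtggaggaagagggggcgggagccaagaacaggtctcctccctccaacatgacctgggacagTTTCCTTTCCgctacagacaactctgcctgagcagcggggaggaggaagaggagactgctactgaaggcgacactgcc
Cd200: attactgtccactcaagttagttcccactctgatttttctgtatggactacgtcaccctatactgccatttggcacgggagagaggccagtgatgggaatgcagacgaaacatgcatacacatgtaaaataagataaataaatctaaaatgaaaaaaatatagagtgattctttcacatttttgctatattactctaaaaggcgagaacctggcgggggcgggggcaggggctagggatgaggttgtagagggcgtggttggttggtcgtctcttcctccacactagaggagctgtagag
Ctla4: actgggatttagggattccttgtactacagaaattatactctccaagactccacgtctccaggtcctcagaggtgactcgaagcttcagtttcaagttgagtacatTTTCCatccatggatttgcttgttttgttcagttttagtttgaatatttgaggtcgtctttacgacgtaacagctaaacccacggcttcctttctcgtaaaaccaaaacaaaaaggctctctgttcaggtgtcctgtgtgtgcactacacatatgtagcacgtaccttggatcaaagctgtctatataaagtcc

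The Pdcd1 window held the NFAT core 2 times, in direct succession, the Ctla4 window 1 time and the Cd200 window 0 times. The same search found it 2 times for Tigit, 1 time for Cd5, 0 times for Btla and Havcr2, and 1 and 0 times in the 2 annotated Cd160 windows. Of 32851 promoters of the same length, 61.3% held the core at least 1 time, so its presence does not set these genes apart. Neither the AP-1 motif TGANTCA (7.81% of promoters) nor the NR4A motif AAAGGTCA (1.51%), both searched on either strand, was in the 3 windows shown, and an AP-1 motif occurred 1 time in that of Havcr2. These matches describe letters and not binding. Lag3 has no entry in the table of promoters.

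The first comparison asked what 18 h of activation did to the receptor transcripts, taking both concentrations together against naive cells of experiment 2. Pdcd1, Ctla4, Lag3, Btla and Cd200 rose, and Cd5 did not pass the test. Among all genes tested 32.3% rose (65.9% changed in either direction), against 5 of the 6 members, and the members' median difference was 4.46 against 0 over all genes. Pdcd1, Ctla4, Lag3 and Cd200 had few counts in naive cells and passed the filter on low counts through activated groups. They could hardly fall here, so the members' count and median are in part set by the filter. In bulk RNA, more cells that express a gene and more RNA per cell cannot be told apart.

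Pdcd1 was at 42.9, 33.6 and 37.5 CPM at the high and 59.2, 63.1 and 49.9 CPM at the low concentration at 18 h, against 3.86, 0.622 and 1.06 CPM in naive cells, a difference of 4.73 ± 0.34 (adjusted p = 2.48e-17). Ctla4 was at 126, 158 and 170.3 CPM at the high and 153, 93.4 and 96.3 CPM at the low concentration, against 5.40, 1.24 and 4.78 CPM in naive cells (5.12 ± 0.31, adjusted p = 3.43e-19). No 18 h library of either gene came near a naive one. Cd200 was at 206, 171 and 198 CPM at the high and 118, 129.8 and 118 CPM at the low concentration, against 2.31, 10.6 and 1.06 CPM in naive cells (5.03 ± 0.41, adjusted p = 1.14e-12). Lag3 was at 22.4, 44.8 and 20.1 CPM at the high and 23.4, 15.8 and 19.6 CPM at the low concentration, against 0.772, 1.87 and 1.06 CPM in naive cells (4.19 ± 0.53, adjusted p = 1.11e-09). These 4 genes were thus at or under 10.6 CPM in every naive library. Btla was at 225, 184 and 203 CPM at the high and 115, 158 and 130.2 CPM at the low concentration, against 39.3, 79.6 and 72.8 CPM in naive cells, a smaller difference of 1.35 ± 0.22 (adjusted p = 6.17e-07). Cd5 had 484, 537 and 479.8 CPM at the high concentration, 635, 705 and 709.7 CPM at the low one and 688, 656 and 522 CPM in naive cells, and the groups overlap (-0.09 ± 0.12, adjusted p = 0.544). Leaving out any 1 library, or using another scaling, filter or DESeq2, kept all 5 calls and the direction of each. Summed regulatory T-cell markers (Foxp3, Ikzf2, Izumo1r and Nrp1, 4 of 4 with counts) stood at 97.1 to 127 CPM at 18 h and 514 to 567 CPM in naive cells. Izumo1r makes up most of the sum and alone of the 4 fell (-2.30 ± 0.12, adjusted p = 9.26e-23), and the median of the 4 was 0.51 against 0 over all genes.

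**Figure D1:**
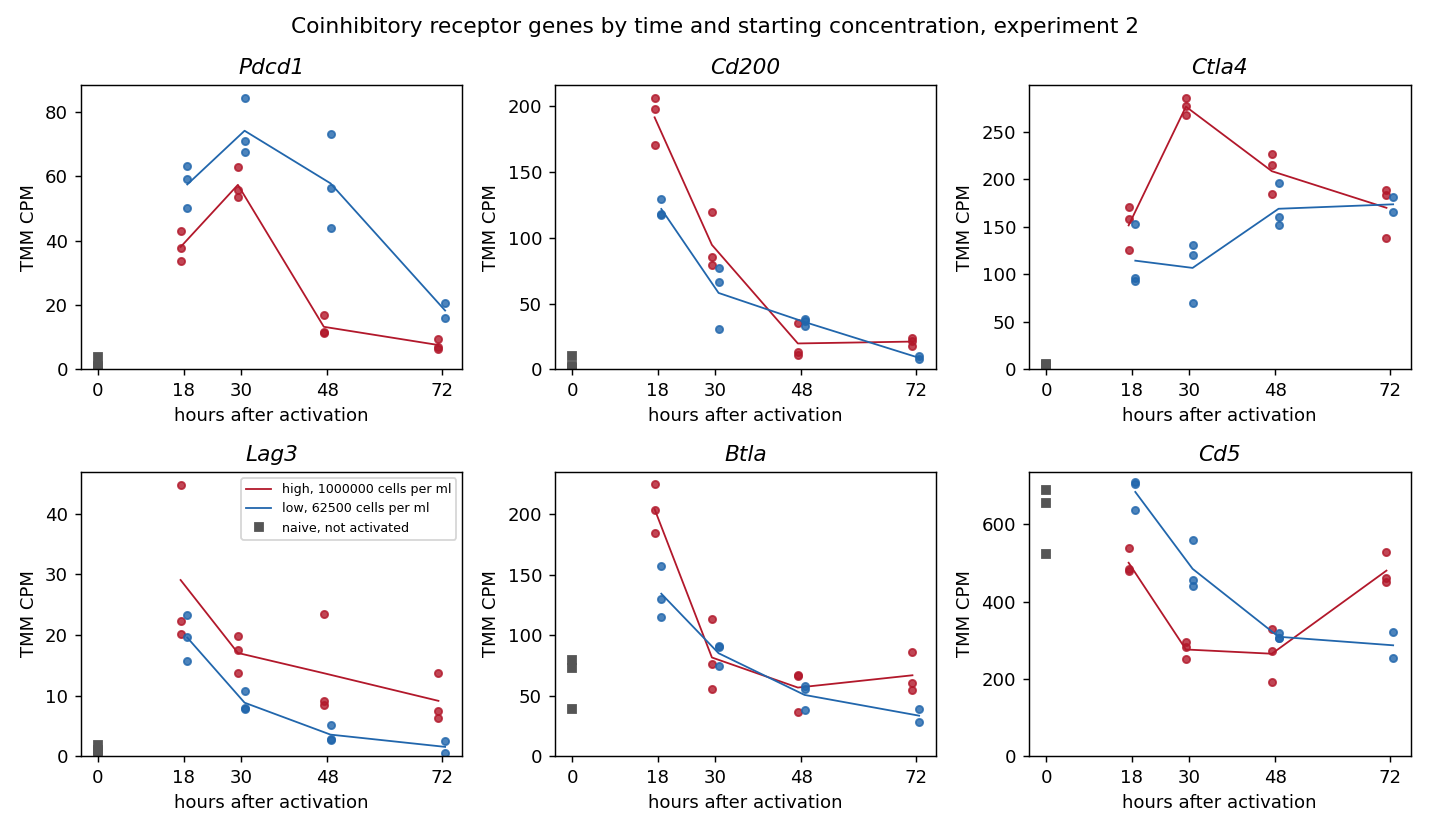
Levels in TMM CPM of the 6 tested genes of experiment 2 against hours after activation. Each point is 1 library, lines join group means, red is the high and blue the low starting concentration (shifted sideways a little for sight), and grey squares at 0 h are naive cells; Cd200 is highest at 18 h and Pdcd1 at 30 h, and Ctla4 at the high concentration reaches 267 to 285 CPM at 30 h.

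After 18 h the members parted in time. Averaged over the concentrations, Pdcd1 peaked at 30 h and then fell, Cd200, Btla and Lag3 were highest at 18 h, and Ctla4 stayed up. Cd5 dipped and came back at the high concentration. From 18 to 30 h, averaged over the concentrations, Pdcd1 rose by 0.47 ± 0.16 (adjusted p = 0.0221), while 4 fell: Cd200 with -1.03 ± 0.22 (adjusted p = 4.89e-04), Btla with -1.0 ± 0.17 (adjusted p = 1.02e-05), Lag3 with -0.97 ± 0.28 (adjusted p = 0.00777) and Cd5 with -0.68 ± 0.10 (adjusted p = 8.57e-07). That is 5 of 6 members, where 24.6% of all genes changed. At 30 h all libraries carry the second number 2 and at 18 h all carry 1, and with that number as a term only Btla and Cd5 passed. Pdcd1 then had 0.22 (adjusted p = 0.633), Cd200 -0.58 (adjusted p = 0.305) and Lag3 -1.60 (adjusted p = 0.0619). The call on Pdcd1 was also lost without low replicate 1 at 30 h, 0.41 (adjusted p = 0.0658), without low replicate 3 at 18 h, 0.43 (adjusted p = 0.0528), or without high replicate 2 at 18 h, 0.43 (adjusted p = 0.0629), and the last of these also ended that on Lag3, -0.74 (adjusted p = 0.0695).

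Pdcd1 was at 62.7, 55.7 and 53.4 CPM at the high and 84.1, 70.7 and 67.3 CPM at the low concentration at 30 h. Its levels were 16.8, 11.5 and 11.4 CPM at the high and 56.3, 73.1 and 43.8 CPM at the low concentration at 48 h. They were 9.39, 6.88 and 6.47 CPM at the high and 20.6 and 15.9 CPM at the low concentration at 72 h. Every library at 72 h thus remained above every naive one. Averaged over the concentrations it fell in both steps, with -1.25 ± 0.16 (adjusted p = 1.94e-08) from 30 to 48 h and -1.20 ± 0.22 (adjusted p = 1.64e-05) from 48 to 72 h. Cd200 was at 79.2, 85.1 and 119.6 CPM at the high and 30.6, 77.3 and 66.5 CPM at the low concentration at 30 h. Its levels were 10.9, 13.4 and 35.1 CPM at the high and 32.8, 36.8 and 38.6 CPM at the low concentration at 48 h. They were 24.3, 18.1 and 21.3 CPM at the high and 10.0 and 7.67 CPM at the low concentration at 72 h. Its low-concentration libraries at 72 h lay within the naive range of 1.06 to 10.6 CPM. Averaged over the concentrations Cd200 fell too, with -1.43 ± 0.24 (adjusted p = 1.49e-05) from 30 to 48 h and -1.01 ± 0.32 (adjusted p = 0.014) from 48 to 72 h. From 48 to 72 h the high cultures did not go down, with group means of 19.8 CPM at 48 h and 21.2 CPM at 72 h, while the low ones had 36.1 CPM at 48 h and 8.84 CPM at 72 h. The second call was lost without high replicate 3 at 48 h, -0.63 (adjusted p = 0.123), or without low replicate 2 at 72 h, -0.93 (adjusted p = 0.0746).

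Lag3 was at 13.7, 19.9 and 17.6 CPM at the high and 10.8, 7.73 and 7.97 CPM at the low concentration at 30 h. Its levels were 23.5, 8.51 and 9.10 CPM at the high and 2.61, 2.88 and 5.22 CPM at the low concentration at 48 h. They were 6.26, 13.8 and 7.40 CPM at the high and 2.50 and 0.59 CPM at the low concentration at 72 h. Its difference from 30 to 48 h, -0.82 ± 0.31 (adjusted p = 0.0402), was lost in 9 of the 12 fits that leave out 1 library, in DESeq2, -0.81 (adjusted p = 0.0589), and with the second number as a term, -0.60 (adjusted p = 0.227). Btla was at 113, 55.3 and 76.6 CPM at the high and 74.5, 91.1 and 89.9 CPM at the low concentration at 30 h. Its levels were 36.9, 67.4 and 66.0 CPM at the high and 38.1, 55.8 and 58.2 CPM at the low concentration at 48 h. They were 86.1, 60.2 and 54.6 CPM at the high and 28.1 and 38.9 CPM at the low concentration at 72 h. It overlapped its naive level at 30 h already, and again at 48 h. It fell by 0.61 ± 0.17 (adjusted p = 0.00558) from 30 to 48 h. Ctla4 was at 277, 285 and 267 CPM at the high and 69.7, 119.9 and 131 CPM at the low concentration at 30 h. Its levels were 185, 226 and 214 CPM at the high and 195, 151 and 159.9 CPM at the low concentration at 48 h. They were 138, 183 and 189 CPM at the high and 181 and 166 CPM at the low concentration at 72 h. Averaged over the concentrations, none of its 3 steps between times passed the test: 0.37 ± 0.15 (adjusted p = 0.0621), 0.13 ± 0.14 (adjusted p = 0.57) and -0.13 ± 0.15 (adjusted p = 0.554). From 18 to 30 h it did pass with DESeq2, with relative log expression (RLE) scaling and with the compared groups alone, and without low replicate 1 at 18 h, 0.52 (adjusted p = 0.0133), or at 30 h, 0.47 (adjusted p = 0.0117). These averages join unlike courses. High group means of Ctla4 were 151 CPM at 18 h, 276 CPM at 30 h and 208 CPM at 48 h, with no overlap of libraries at either step. Low ones were 114, 107 and 169 CPM, with overlap from 18 to 30 h only.

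Cd5 was at 251, 282 and 295 CPM at the high and 558, 455 and 441 CPM at the low concentration at 30 h. Its levels were 329, 193 and 273 CPM at the high and 304, 318 and 304 CPM at the low concentration at 48 h. They were 462, 528 and 450.4 CPM at the high and 253 and 321 CPM at the low concentration at 72 h. Every library of these cultures at 30, 48 and 72 h was below its lowest naive one except 558 CPM at 30 h and 528 CPM at 72 h. Averaged over the concentrations it fell by 0.36 ± 0.10 (adjusted p = 0.00643) from 30 to 48 h, a call lost without high replicate 2 at 48 h, -0.25 (adjusted p = 0.0606), and rose by 0.38 ± 0.11 (adjusted p = 0.00573) from 48 to 72 h, a call lost without low replicate 2 at 72 h, 0.27 (adjusted p = 0.105). The rise is in the high cultures (group means of 265 CPM at 48 h and 479.8 CPM at 72 h), while the low ones had 309 CPM at 48 h and 287 CPM at 72 h. In all, 5 of 6 members fell from 30 to 48 h, where 11.8% of all genes fell (26.7% changed in either direction), and 3 of 6 changed from 48 to 72 h, where 31.9% of all genes changed.

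The next comparison addresses the starting concentration. Averaged over the 4 times, cells started at the high concentration had more Lag3, Ctla4 and Btla and less Pdcd1 RNA than cells started at the low one. These are 4 of 6 members, where 20.5% of all genes changed. Lag3 differed by 1.46 ± 0.25 (adjusted p = 1.44e-05), Ctla4 by 0.50 ± 0.11 (adjusted p = 4.08e-04), Btla by 0.43 ± 0.13 (adjusted p = 0.0137) and Pdcd1 by -1.09 ± 0.13 (adjusted p = 6.92e-09). The call on Btla was lost without low replicate 1 at 72 h, 0.37 (adjusted p = 0.0646). Cd200 (0.46 ± 0.19, adjusted p = 0.0922) and Cd5 (-0.18 ± 0.07, adjusted p = 0.0717) did not pass, and both passed without high replicate 1 at 48 h, Cd200 with 0.52 (adjusted p = 0.048) and Cd5 with -0.23 (adjusted p = 0.0151). A test across the 4 times showed that the difference between concentrations itself changed with time for 4 of 6 members, where it did for 30.5% of all genes: Pdcd1 (adjusted p = 1.49e-04), Ctla4 (0.00151), Cd200 (0.0238) and Cd5 (2.88e-06). For Cd200 the call was lost with the second number as a term (adjusted p = 0.225) and without high replicate 1, high replicate 2 or low replicate 3 at 48 h (adjusted p from 0.0609 to 0.0807).

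**Figure D2:**
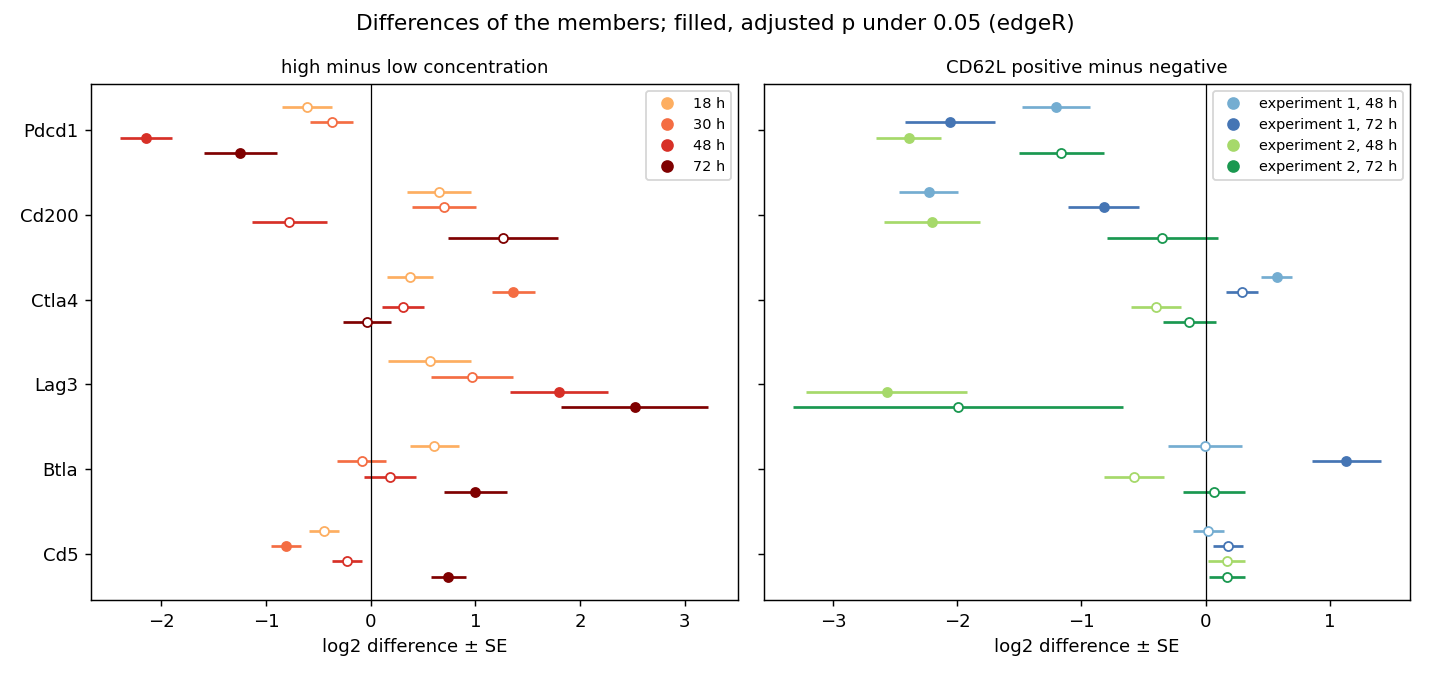
Log2 differences ± SE of 6 members, on the left high minus low concentration at 18, 30, 48 and 72 h in experiment 2, on the right CD62L positive minus negative cells at 48 and 72 h in both experiments. Filled points had an edgeR adjusted p under 0.05; Pdcd1 lies left of 0 in all 8 contrasts drawn and Lag3 right of 0 in the 4 contrasts of concentration.

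At 18 h 0 of 6 members passed, where 1.87% of all genes did. At an unadjusted p under 0.05 there were 4, DESeq2 called 0, and a fit of the 2 groups alone called 3 (Btla, Cd200 and Cd5). The values were -0.61 ± 0.24 (adjusted p = 0.243) for Pdcd1, 0.61 ± 0.24 (adjusted p = 0.243) for Btla, 0.65 ± 0.31 (adjusted p = 0.401) for Cd200 and -0.45 ± 0.15 (adjusted p = 0.111) for Cd5. At 30 h 2 of 6 passed, against 8.56% of all genes. Ctla4 was higher by 1.36 ± 0.20 (adjusted p = 6.10e-06), with 267 to 285 CPM at the high and 69.7 to 131 CPM at the low concentration, and Cd5 was lower (-0.81 ± 0.14, adjusted p = 1.21e-04), with 251 to 295 against 441 to 558 CPM. Neither gene's groups overlap, and both calls held with the second number as a term, since both groups carry the number 2. Summed regulatory T-cell markers were 222 to 241 CPM at the high and 77.5 to 121 CPM at the low concentration at 30 h. Most of that sum is Izumo1r, the only one of the 4 that passed (1.35 ± 0.14, adjusted p = 1.16e-09), while Foxp3 was at or under 2.21 CPM in every library at 30 h and the median of the 4 was -0.564 against -0.0265 over all genes. Their part in the Ctla4 difference was not tested.

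At 48 h Pdcd1 was 4.42-fold lower at the high concentration, 16.8, 11.5 and 11.4 CPM at the high and 56.3, 73.1 and 43.8 CPM at the low concentration (-2.15 ± 0.25, adjusted p = 1.45e-09), and the groups do not overlap. Lag3 was higher, 23.5, 8.51 and 9.10 CPM at the high and 2.61, 2.88 and 5.22 CPM at the low concentration (1.80 ± 0.47, adjusted p = 0.00263), but high replicate 1 stands above the rest. Without it the Lag3 difference was 1.23 (adjusted p = 0.0705), and with the second number as a term 1.36 (adjusted p = 0.0973). These 2 of 6 members compare with 25.9% of all genes. Cd200 had 10.9, 13.4 and 35.1 CPM at the high and 32.8, 36.8 and 38.6 CPM at the low concentration and did not pass (-0.78 ± 0.36, adjusted p = 0.113). High replicate 3 lies among the low libraries, and without it the difference was -1.57 (adjusted p = 0.00265). Cd5, not called (-0.22 ± 0.15, adjusted p = 0.275), was called without high replicate 1, -0.41 (adjusted p = 0.0464).

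At 72 h 4 of 6 members passed, where 26.5% of all genes did. Pdcd1 was at 9.39, 6.88 and 6.47 CPM at the high and 20.6 and 15.9 CPM at the low concentration (-1.25 ± 0.35, adjusted p = 0.00599). Lag3 was at 6.26, 13.8 and 7.40 CPM at the high and 2.50 and 0.59 CPM at the low concentration (2.52 ± 0.70, adjusted p = 0.00563), Btla at 86.1, 60.2 and 54.6 CPM at the high and 28.1 and 38.9 CPM at the low concentration (1.0 ± 0.30, adjusted p = 0.0115) and Cd5 at 462, 528 and 450.4 CPM at the high and 253 and 321 CPM at the low concentration (0.74 ± 0.17, adjusted p = 5.74e-04). No library of 1 concentration overlaps the other for these genes. Cd200 had 24.3, 18.1 and 21.3 CPM at the high and 10.0 and 7.67 CPM at the low concentration and just missed the threshold (1.26 ± 0.53, adjusted p = 0.0735), which it passed in DESeq2, 1.28 (adjusted p = 0.023). Ctla4 did not pass (-0.03 ± 0.23, adjusted p = 0.938). With 2 libraries at the low concentration, each of the 4 calls was lost when 1 library was left out. Without low replicate 1 Pdcd1 was -1.07 (adjusted p = 0.0894), Btla 0.77 (adjusted p = 0.172) and Cd5 0.57 (adjusted p = 0.0606). Without low replicate 2 Lag3 was 1.83 (adjusted p = 0.132), and without high replicate 1 Btla was 0.77 (adjusted p = 0.0872). All high libraries at 72 h carry the second number 1 and both low ones the number 2, so the number and the concentration cannot be told apart within this time. A term for it rests on other groups that hold both numbers, low-concentration and CD62L negative cells at 48 h and both sorts at 72 h. With that term Lag3 and Cd5 remained called, and it gave -1.0 (adjusted p = 0.0771) for Pdcd1 and 0.77 (adjusted p = 0.129) for Btla.

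Sorting by CD62L, the homing receptor that naive and central memory T cells keep, separated the members too. At 48 h Pdcd1 and Cd200 RNA was lower in CD62L positive than in CD62L negative cells in both experiments. In experiment 2, 3 of 6 members fell, where 7.28% of all genes fell (14.5% changed in either direction), and in experiment 1, 2 of 6 fell and 1 rose, where 6.51% of all genes changed. The experiments share no library.

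Pdcd1 was at 8.06, 8.53 and 10.3 CPM in CD62L positive and 33.9, 56.1 and 50.5 CPM in CD62L negative cells at 48 h in experiment 2, 5.25-fold lower (-2.39 ± 0.26, adjusted p = 1.28e-09). In experiment 1 it was at 12.3, 16.3 and 16.7 CPM in CD62L positive and 34.4, 41.9 and 28.4 CPM in CD62L negative cells (-1.20 ± 0.27, adjusted p = 0.0034). Cd200 was at 9.21, 18.5 and 8.37 CPM in CD62L positive against 70.7, 41.4 and 54.0 CPM in CD62L negative cells in experiment 2 (-2.20 ± 0.39, adjusted p = 1.06e-04). The sorted groups of both genes are separate in both experiments. In experiment 1 Cd200 was at 16.8, 23.8 and 14.5 CPM in CD62L positive and 85.6, 80.7 and 91.2 CPM in CD62L negative cells (-2.23 ± 0.24, adjusted p = 1.65e-08). Lag3, with enough counts in experiment 2 alone, was at 2.30, 0 and 0.644 CPM in CD62L positive and 2.78, 8.34 and 8.07 CPM in CD62L negative cells (-2.57 ± 0.65, adjusted p = 0.00431). At 48 h all CD62L positive libraries carry the second number 1 and 2 of the 3 negative ones the number 2, and with that number as a term Lag3 was -2.07 (adjusted p = 0.0973) while Pdcd1 and Cd200 remained called.

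Ctla4 gave opposite signs in the 2 experiments. In experiment 1 it rose in CD62L positive cells at 48 h, with 373, 325 and 378 CPM in CD62L positive and 223, 251 and 249 CPM in CD62L negative cells (0.57 ± 0.12, adjusted p = 0.00242), and the groups are apart. In experiment 2 it had 171, 169.9 and 164 CPM in CD62L positive and 177, 242 and 246 CPM in CD62L negative cells and did not pass (-0.40 ± 0.20, adjusted p = 0.194), although every CD62L positive library lies below every negative one, as for Pdcd1 and Cd200. The experiments were not tested against each other. Summed regulatory T-cell markers were 822 to 1080 CPM in CD62L positive and 764 to 871 CPM in CD62L negative cells in experiment 1, and 963 to 1010 CPM in CD62L positive and 451 to 620 CPM in CD62L negative cells in experiment 2. Their part was not tested. Cd5 differed little between the sorts at 48 h, 0.17 ± 0.15 (adjusted p = 0.5) in experiment 2 and 0.02 ± 0.13 (adjusted p = 0.956) in experiment 1. Btla did not pass in either, -0.58 ± 0.24 (adjusted p = 0.109) and -0.01 ± 0.30 (adjusted p = 1), but passed in experiment 2 without CD62L negative replicate 3, -0.78 (adjusted p = 0.0291). In experiment 1 CD62L positive replicate 1, at 83.8 CPM, lies above every negative library (43.4 to 54.4 CPM), and the other CD62L positive libraries, at 31.3 and 31.2 CPM, lie below them.

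**Figure D3:**
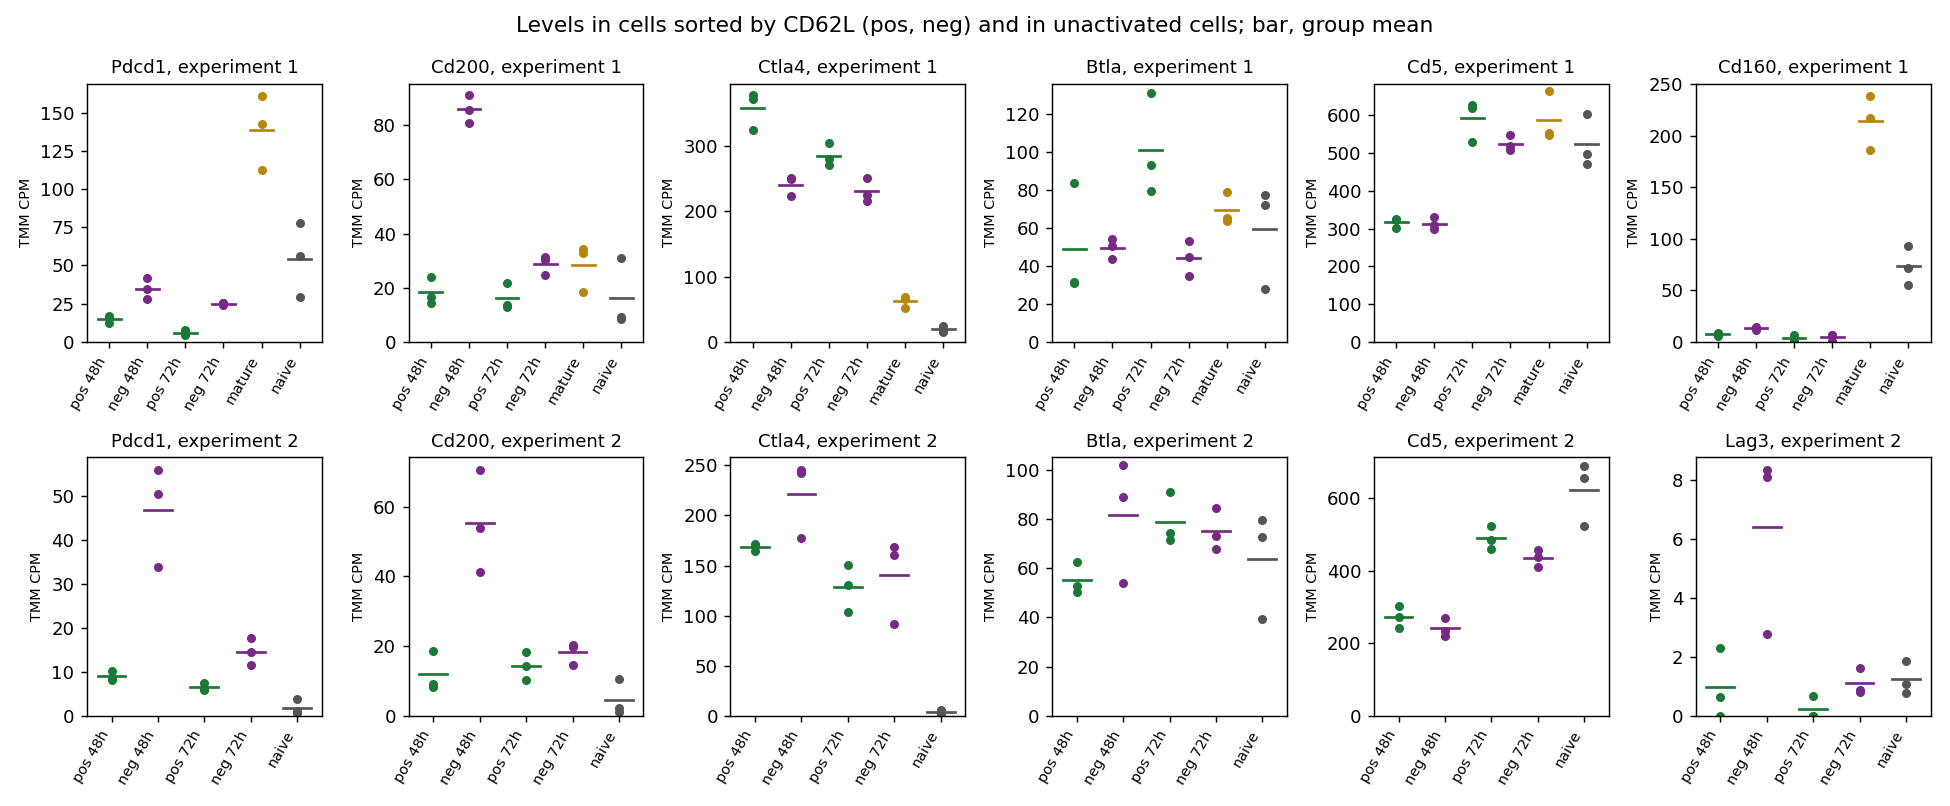
Levels in TMM CPM of 6 genes in CD62L positive (pos, green) and CD62L negative (neg, purple) sorts taken at 48 and 72 h and in unactivated mature (gold) and naive (grey) cells, experiment 1 above and experiment 2 below, each table on its own scale. Points are libraries and bars are group means; Pdcd1 and Cd200 are lower in the positive sort at 48 h in both rows, and Pdcd1 in unactivated cells is high in experiment 1 and near 0 in experiment 2.

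At 72 h 3 of 6 members passed in experiment 1 and 0 of 6 in experiment 2. In experiment 1 Pdcd1 remained lower in CD62L positive cells, 7.64, 5.31 and 4.29 CPM in CD62L positive and 25.7, 24.0 and 25.6 CPM in CD62L negative cells (-2.06 ± 0.36, adjusted p = 7.74e-05), and Btla was higher, 92.9, 79.6 and 131 CPM in CD62L positive and 44.6, 53.4 and 34.5 CPM in CD62L negative cells (1.13 ± 0.28, adjusted p = 0.00518). Neither gene's groups overlap. Cd200 was at 21.6, 13.8 and 12.9 CPM in CD62L positive and 30.3, 31.5 and 24.8 CPM in CD62L negative cells (-0.82 ± 0.28, adjusted p = 0.0373). Of all genes of experiment 1, 19.5% changed in this comparison. The Cd200 call was lost in DESeq2, -0.85 (adjusted p = 0.0502), and with the compared groups alone, -0.81 (adjusted p = 0.0686). It was also lost without CD62L positive replicate 2 or 3 or CD62L negative replicate 1 or 2 (adjusted p from 0.074 to 0.158).

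In experiment 2 at 72 h 1.53% of all genes passed and no member did; 1 had an unadjusted p under 0.05, and DESeq2 called 1, Pdcd1 in both cases. Pdcd1 was at 7.52, 6.12 and 5.76 CPM in CD62L positive against 17.7, 11.5 and 14.6 CPM in CD62L negative cells, with separate groups (-1.16 ± 0.34, adjusted p = 0.0666). DESeq2 gave -1.18 (adjusted p = 0.049) for it. Cd200 was at 10.3, 18.4 and 14.4 CPM in CD62L positive and 20.3, 19.7 and 14.6 CPM in CD62L negative cells (-0.35 ± 0.45, adjusted p = 0.848). For Lag3 the CD62L positive libraries held 1 count in all and the negative ones 4, a ratio of 0.199 with an exact 95% interval of 0.00404 to 2.01 that covers counting error only. Whether the difference between sorts changed from 48 to 72 h was tested in each experiment, and 0 of 6 members passed in either (background 1.89% in experiment 1 and 1.30% in experiment 2), with 2 at an unadjusted p under 0.05 in each. Cd200 came nearest in experiment 1, 1.41 ± 0.39 (adjusted p = 0.0517), and was called there by DESeq2, 1.40 (adjusted p = 0.0368), and in experiment 2 by DESeq2 as well, 1.86 (adjusted p = 0.0223). In experiment 1 it was also called without CD62L positive replicate 2 at 48 h, 1.58 (adjusted p = 0.0459), or replicate 3 at 72 h, 1.47 (adjusted p = 0.0435), and Btla was called without CD62L positive replicate 1 at 48 h, 1.74 (adjusted p = 0.00382).

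Between 48 and 72 h, averaged over both sorts, Cd5 rose and Pdcd1 fell in both experiments. In experiment 2 Cd5 differed by 0.85 ± 0.10 (adjusted p = 2.41e-09), Pdcd1 by -1.08 ± 0.22 (adjusted p = 8.01e-05), Ctla4 by -0.53 ± 0.15 (adjusted p = 0.00315) and Lag3 by -2.21 ± 0.75 (adjusted p = 0.0159), 4 of 6 members where 37.8% of all genes changed. The Lag3 call was lost without CD62L positive replicate 1 at 48 h, -1.49 (adjusted p = 0.328). Cd200 did not pass (-0.66 ± 0.30, adjusted p = 0.084). It did with DESeq2, -0.65 (adjusted p = 0.0356), and with the compared groups alone, -0.67 (adjusted p = 0.0183). Without CD62L negative replicate 2 at 48 h it also passed, -0.76 (adjusted p = 0.0477). Its group means went from 55.4 to 18.2 CPM in CD62L negative and from 12.0 to 14.3 CPM in CD62L positive cells. In experiment 1 Cd5 differed by 0.83 ± 0.09 (adjusted p = 7.45e-10), Pdcd1 by -0.90 ± 0.24 (adjusted p = 0.00185), Cd160 by -1.06 ± 0.34 (adjusted p = 0.00954) and Cd200 by -0.85 ± 0.19 (adjusted p = 3.40e-04), 4 of 6 where 52.5% of all genes changed. Group means of Cd200 there went from 85.9 to 28.8 CPM in CD62L negative and from 18.4 to 16.1 CPM in CD62L positive cells. Those of Pdcd1, in the same order of sorts, went from 34.9 to 25.1 and from 15.1 to 5.74 CPM. In experiment 2 they went from 46.8 to 14.6 and from 8.96 to 6.47 CPM. Cd5 was at 509.5 to 628 CPM at 72 h and 298 to 329.8 CPM at 48 h in experiment 1, and at 409.6 to 523 against 219.8 to 301 CPM in experiment 2, so no library of 1 time overlaps the other. Ctla4 in experiment 1 was just outside the threshold (-0.20 ± 0.09, adjusted p = 0.0633) and passed it with DESeq2, with RLE scaling, with a filter of 10 counts and in 8 of the 12 fits that leave out 1 library.

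Among unactivated cells of experiment 1, mature cells had more Pdcd1, Ctla4 and Cd160 than naive cells. Mature CD4 T cells are antigen-experienced cells and include regulatory and follicular helper cells. Pdcd1 was at 142, 161 and 113 CPM in mature and 77.6, 29.7 and 56.0 CPM in naive cells (1.51 ± 0.28, adjusted p = 3.01e-04). Ctla4 was at 51.9, 69.3 and 65.3 CPM in mature and 15.5, 17.0 and 24.9 CPM in naive cells (1.57 ± 0.33, adjusted p = 0.00108), and Cd160 at 187, 239 and 217 CPM in mature and 93.1, 55.2 and 71.5 CPM in naive cells (1.65 ± 0.27, adjusted p = 4.95e-05). For each of the 3 genes every mature library lies above every naive one. The naive values rest on few counts, in the same order of libraries. They were 5, 7 and 18 for Pdcd1, 1, 4 and 8 for Ctla4, and 6, 13 and 23 for Cd160. Naive counts of Cd200 were 2, 2 and 3. The later contrasts with naive cells of experiment 1 rest on the same libraries. Cd200 had 32.7, 18.3 and 34.3 CPM in mature and 31.0, 8.49 and 9.33 CPM in naive cells and did not pass (1.33 ± 0.51, adjusted p = 0.0692), but did without mature replicate 2, 1.58 (adjusted p = 0.0362), or naive replicate 1, 1.70 (adjusted p = 0.0329). Btla (0.44 ± 0.44, adjusted p = 0.536) and Cd5 (0.16 ± 0.14, adjusted p = 0.47) did not pass. The 3 of 6 members compare with 16.4% of all genes.

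Markers of other cells moved with these groups. Regulatory T-cell markers summed to 1170 to 1220 CPM in mature and 539 to 792 CPM in naive cells, and follicular helper markers (Cxcr5, Bcl6, Il21 and Ascl2, 4 of 4 with counts) to 313 to 352 against 191 to 221 CPM. Both are CD4 subsets known to carry PD-1 or CTLA-4. CD8 T and NK markers summed to 412 to 467 CPM in mature cells, with Gzma at 0, and to 171 to 476 CPM in naive cells, with 7 of 7 present. The sums overlap, but single markers moved both ways. Klrb1c was at 111 to 130 CPM in mature and 15.5 to 50.9 CPM in naive cells (1.44 ± 0.32, adjusted p = 0.00197), and Nkg7 at 212 to 281 CPM in mature and 46.6 to 180 CPM in naive cells (0.81 ± 0.24, adjusted p = 0.0166), both higher alongside Cd160. Cd8a (-2.45 ± 0.49, adjusted p = 5.98e-04) and Cd8b1 (-2.44 ± 0.32, adjusted p = 1.24e-06) fell. B-cell markers summed to 477 to 538 CPM in mature and 745 to 1350 CPM in naive cells, with Pax5 at 0 in both, and myeloid markers to 341 to 369 against 621 to 1390 CPM. Red cell and platelet markers summed to 26.9 to 40.8 CPM in mature and 162 to 435 CPM in naive cells. Their part in the receptor differences was not tested.

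Pdcd1 and Cd160 levels also differed between the naive cells of the 2 experiments, whose tables were scaled apart and differ in their share of ribosomal protein genes. Sorted naive cells of experiment 2 had 0.622 to 3.86 CPM of Pdcd1 and 0 counts of Cd160, where the column-enriched naive cells of experiment 1 had 29.7 to 77.6 and 55.2 to 93.1 CPM in their own table. In experiment 2 naive cells B-cell markers summed to 1.24 to 8.49 CPM (3 of 6 with counts), myeloid markers to 4.78 to 8.09 CPM (5 of 7) and CD8 T and NK markers to 44.7 to 52.6 CPM (3 of 7, with Cd8a, Klrb1c, Ncr1 and Nkg7 at 0), follicular helper markers to 6.84 to 22.4 CPM (2 of 4, with Il21 and Ascl2 at 0), and red cell and platelet markers were at 0. On activation Pdcd1 had opposite signs in the 2 experiments. In experiment 1 Pdcd1 averaged over both sorts at 48 h was lower than in naive cells (-1.07 ± 0.32, adjusted p = 0.004), a call lost without naive replicate 3, -0.81 (adjusted p = 0.155). In experiment 2 the sorted cells at 48 h had 8.06 to 56.1 CPM, all above its naive cells.

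Against naive cells of experiment 1, activated cells at 48 h also had more Ctla4 (3.81 ± 0.25, adjusted p = 1.69e-15) and Cd200 (1.79 ± 0.45, adjusted p = 8.94e-04) and less Cd160 (-2.77 ± 0.35, adjusted p = 1.79e-08) and Cd5 (-0.74 ± 0.13, adjusted p = 4.85e-06), 5 of 6 members in all, where 62.1% of all genes changed. Cd160, a receptor known mainly from NK and CD8 T cells, was at 8.93, 7.52 and 5.57 CPM in CD62L positive and 14.3, 11.4 and 13.8 CPM in CD62L negative cells at 48 h, and at 1.27, 6.37 and 4.29 CPM in CD62L positive and 6.85, 6.85 and 0.884 CPM in CD62L negative cells at 72 h. Summed CD8 T and NK markers were at 26.1 to 60.1 CPM in the activated groups, B-cell markers at 5.33 to 17.2 CPM and myeloid markers at 6.19 to 65.8 CPM, and their part was not tested. CD62L positive cells at 72 h against naive cells, enriched as CD62L positive, showed Ctla4 higher (3.76 ± 0.26, adjusted p = 5.78e-14) and Pdcd1 (-3.0 ± 0.44, adjusted p = 1.45e-06) and Cd160 (-4.0 ± 0.47, adjusted p = 1.64e-08) lower, 3 of 6 where 37.2% of all genes changed. CD62L negative cells at 72 h against mature cells, enriched as CD62L negative, showed the same 3 genes changed, Ctla4 by 1.89 ± 0.16 (adjusted p = 3.18e-12), Pdcd1 by -2.45 ± 0.21 (adjusted p = 4.63e-12) and Cd160 by -5.31 ± 0.28 (adjusted p = 6.31e-18), where 48.7% of all genes changed. Follicular helper markers stood at 7.53 to 22.9 CPM in the activated groups, and regulatory T-cell markers at 759 to 869 CPM in CD62L negative cells at 72 h.

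Havcr2, the receptor TIM-3 of exhausted T cells and of myeloid cells, had 24 counts in experiment 1. The unactivated libraries held most of them, 5, 1 and 5 counts in mature and 1, 3 and 2 in naive cells, where the myeloid markers were also highest. CD62L negative cells at 72 h held 2 counts against 11 in mature cells, a ratio of 0.068 (exact 95% interval 0.00732 to 0.311, counting error only), and CD62L positive cells at 72 h held 1 against 6 in naive cells, a ratio of 0.0472 (0.00103 to 0.389). In experiment 2 Havcr2 had 1 count in 38 libraries. Cd160 had 21 counts in experiment 2, of which 4 were in the low concentration at 18 h and 0 in the high one. Tigit, which competes with the activating receptor CD226 for CD155, had 3 counts in experiment 1 and 8 in experiment 2. Lag3 had 1 count in experiment 1, and sorts of the same kind held up to 8.34 CPM of it in experiment 2, whose table differs in make-up. These counts limit what can be detected here and do not show that the receptors are absent.

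Several of the genes lie beside a gene of related function on the chromosome, and those neighbours were looked at because of their place, after values had been seen. Ctla4 lies between the costimulatory genes Cd28 and Icos on chromosome 1, Lag3 beside Cd4 on chromosome 6, Btla beside Cd200 on chromosome 16 and Cd5 beside its relative Cd6 on chromosome 19, by the order of protein-coding genes in RefSeq GRCm38.p6. At 18 h against naive cells, where Ctla4 rose, Icos rose by 1.86 ± 0.34 (adjusted p = 8.37e-06) and Cd28 did not pass (0.78 ± 0.46, adjusted p = 0.14), and where Lag3 rose, Cd4 fell by 1.08 ± 0.12 (adjusted p = 3.05e-11). Cd6 followed Cd5 in not passing there (-0.19 ± 0.14, adjusted p = 0.217), in falling from 18 to 30 h (-0.52 ± 0.11, adjusted p = 3.71e-04) and from 30 to 48 h (-0.38 ± 0.11, adjusted p = 0.00848), and in being lower at the high concentration at 30 h (-0.65 ± 0.16, adjusted p = 0.00553). At that time and contrast Ctla4 differed by 1.36 ± 0.20 while Icos (0.05 ± 0.31, adjusted p = 0.951) and Cd28 (-0.35 ± 0.55, adjusted p = 0.769) did not pass. Btla and Cd200 both rose at 18 h, and at 48 h in the CD62L sorts Cd200 fell in both experiments while Btla did not pass. In that contrast Cd28, Icos, Cd4 and Cd6 did not pass in either experiment.

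Genes that act with the receptors were followed as lists chosen with earlier results of these data known. Of 7 transcriptional regulators tested in experiment 2, 4 rose and 2 fell at 18 h against naive cells, where 32.3% of all genes rose and 65.9% changed (median 0.52, against 0 over all genes). Irf4 rose by 7.64 ± 0.21, Nr4a3 by 4.35 ± 0.31 and Nr4a1 by 2.63 ± 0.19, and Nfatc2 fell by 1.21 ± 0.20. NR4A factors and IRF4 are induced by antigen receptor signals. In CD62L positive against negative cells at 48 h, where Pdcd1, Cd200 and Lag3 fell, 6 of the 7 fell and 1 rose, where 7.28% of all genes fell (median -1.08 against 0.00965), among them Nr4a3 (-3.15 ± 0.34), Nr4a1 (-3.0 ± 0.24), Irf4 (-2.01 ± 0.16) and Batf (-0.79 ± 0.16). In these sorts the second number goes in part with CD62L. It was not tried as a term for this list or those below. In experiment 1 the same contrast had 2 of 10 lower (Irf4 at -0.89 ± 0.13 and Nfatc1 at -0.72 ± 0.15) and 1 higher (Nfatc2 at 0.72 ± 0.17), where 6.51% of all genes changed, with a median of -0.173 against 0.00937. From 48 to 72 h the difference between sorts changed for 4 of 7 regulators in experiment 2 and 1.30% of all genes, Nr4a1 by 2.80 ± 0.36 (adjusted p = 1.31e-06), Nr4a3 by 2.35 ± 0.63 (adjusted p = 0.0422), Irf4 by 1.33 ± 0.23 (adjusted p = 3.83e-04) and Batf by 0.89 ± 0.23 (adjusted p = 0.0249), while no member passed.

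Of 7 ligand genes tested in experiment 2, 4 fell and 1 rose at 18 h, where 65.9% of all genes changed (median -1.39 against 0). Cd274, which encodes PD-L1, rose by 1.53 ± 0.29, while Cd200r1, the receptor of CD200, fell by 4.95 ± 0.64, as did Lgals9 (-1.64 ± 0.14) and Pvr, which encodes the TIGIT ligand CD155 (-1.39 ± 0.17). In CD62L positive against negative cells at 48 h 2 of 7 fell and 1 rose in experiment 2, where 14.5% of all genes changed (median -0.0681 against 0.00965), with Cd274 at -2.0 ± 0.44, Lgals3 at -1.52 ± 0.36 and Pvr at 1.04 ± 0.20. In experiment 1 the PD-1 ligand gene Pdcd1lg2 (-1.29 ± 0.37) and the CTLA-4 and CD28 ligand gene Cd80 (-2.30 ± 0.50) fell and Pvr rose (0.59 ± 0.16), 3 of 9 in all, where 6.51% of all genes changed (median -0.904 against 0.00937). Pvr was thus higher in the CD62L positive cells of both experiments.

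Of 10 costimulatory receptors and related surface genes 5 rose and 3 fell at 18 h, where 32.3% of all genes rose and 65.9% changed (median 1.32 against 0), among them Tnfrsf4 (OX40) by 5.24 ± 0.20, Tnfrsf9 (4-1BB) by 4.41 ± 0.27 and Tnfrsf18 (GITR) by 1.98 ± 0.14, while Cd2, an adhesion receptor, fell by 1.74 ± 0.11. In CD62L positive cells at 48 h Tnfrsf9 (-1.38 ± 0.24) and Tnfrsf4 (-0.90 ± 0.17) fell in experiment 2 (2 of 10 fell and 2 rose, where 14.5% of all genes changed, median -0.000491 against 0.00965), as did Tnfrsf9 (-0.92 ± 0.20) and Tnfrsf4 (-0.82 ± 0.13) in experiment 1 (2 of 9 fell and 1 rose, where 6.51% of all genes changed, median -0.153 against 0.00937). Cd27 rose in both, by 0.57 ± 0.17 in experiment 2 and 0.98 ± 0.14 in experiment 1. The difference between concentrations changed with time for 8 of 10 (Tnfrsf9, adjusted p = 7.91e-09; Cd2, 4.43e-08), where it did for 30.5% of all genes. At 72 h 4 of 10 were higher at the high concentration and 0 lower, where 26.5% of all genes changed (median 0.596 against 0.0121), with Tnfrsf9 higher by 2.08 ± 0.28. At that time the low group has 2 libraries and the second number goes with the concentration.

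Of 13 signalling relays, phosphatases, kinases and ubiquitin ligases through which such receptors act, 5 rose and 4 fell at 18 h, near the 65.9% of all genes that changed (median -0.293 against 0). Dgka, a kinase that ends diacylglycerol signals, fell by 3.14 ± 0.12, Ptpn22 was at -1.06 ± 0.18, and Ptpn2 rose by 1.05 ± 0.17. Dgka was higher in CD62L positive cells at 48 h in both experiments, by 0.93 ± 0.14 in experiment 2 and 0.77 ± 0.14 in experiment 1. At 72 h 5 of 13 were higher and 1 lower at the high concentration, where 26.5% of all genes changed (median 0.133 against 0.0121), with the ubiquitin ligase gene Cblb higher by 3.15 ± 0.48 (adjusted p = 1.07e-06) and Ptpn22 by 0.94 ± 0.23 (adjusted p = 0.00139). Here too the low group has 2 libraries and the second number goes with the concentration. Of 10 other inhibitory surface genes 4 were tested in experiment 2, and all 4 fell at 18 h (median -1.53 against 0). Of all genes 32.3% rose there and 65.9% changed in either direction. The 4 were Pecam1 (-4.02 ± 0.23), Cd96 (-1.83 ± 0.17), 4632428N05Rik (-1.24 ± 0.22) and Nt5e (-1.04 ± 0.33). PECAM-1 is an inhibitory adhesion protein, CD96 a receptor of CD155, 4632428N05Rik encodes VISTA, and Nt5e encodes CD73, which makes adenosine. In experiment 1 the 10 tested all fell at 48 h against naive cells (median -3.57 against 0.0199), where 62.1% of all genes changed in either direction. Cd300a had -7.62 ± 0.69 and Klrg1 -6.52 ± 0.65, beside the fall of B-cell, myeloid and NK markers given above. None of the 4 tested in experiment 2 passed between the CD62L sorts at 48 h, where 14.5% of all genes did (median 0.429 against 0.00965), while in experiment 1 Pecam1 (0.90 ± 0.20) and 4632428N05Rik (0.93 ± 0.18) rose, 2 of 10 where 6.51% of all genes changed (median 0.642 against 0.00937).

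Ordered by mean level over the 13 groups of experiment 2, Pdcd1 ran from 1.85 CPM in naive cells to 74 CPM at the low concentration at 30 h. Naive cells lie clear of the next group, and the upper 6 groups, from 38.0 CPM at the high concentration at 18 h, overlap their neighbours in turn. Cd200 ran from 4.65 CPM in naive cells to 192 CPM at the high concentration at 18 h, which lies clear of the low concentration at 18 h (122 CPM) below it. Ctla4 ran from 3.81 CPM in naive cells to 276 CPM at the high concentration at 30 h, and both ends stand clear of their neighbours. Lag3 ran from 0.228 CPM in CD62L positive cells at 72 h to 29.1 CPM at the high concentration at 18 h, with 11 of the 12 neighbouring pairs overlapping. Btla ran from 33.5 CPM at the low concentration at 72 h to 204 CPM at the high concentration at 18 h, and only the 2 groups at 18 h stand clear. Cd5 ran from 241 CPM in CD62L negative cells at 48 h to 683 CPM at the low concentration at 18 h, with 1 gap, between 309 CPM at the low concentration at 48 h and 434 CPM in CD62L negative cells at 72 h.

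Across those 13 group means, on the log2 scale, Cd200 and Pdcd1 had a Pearson r of 0.839, Cd200 and Lag3 of 0.815 and Cd200 and Btla of 0.759. Pdcd1 and Cd5 had -0.211 and Ctla4 and Cd5 -0.574. The genes were measured in the same libraries, and the groups share a time course. The genes outside the list whose pattern was most like Pdcd1 were Ankrd39 (r = 0.972), Sgsm3 (0.968) and Lad1 (0.967), but over the 6 groups of experiment 1 the same pairs had -0.16, -0.479 and -0.276. For Cd200 they were Bcl2a1b (0.981), Npm1 (0.971) and Cul2 (0.965), with 0.413 for Npm1 and 0.679 for Cul2 in experiment 1. For Ctla4, Gm3219 (0.959) and Cks2 (0.957) were among them, with 0.887 for Cks2 in experiment 1. For Lag3 they were Spag4 (0.943), Ube2o (0.934) and Myc (0.931), for Btla Hiat1 (0.931), Nop10 (0.904) and Zfp770 (0.891), and for Cd5 Il6st (0.944), March6 (0.935) and Zfc3h1 (0.93). In experiment 1 Il6st had 0.748 with Cd5 and Hiat1 -0.0819 with Btla.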

How the data were processed

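Gene expression in mouse CD4 T cells was deposited by the authors as 2 tables of raw counts per gene symbol, 1 column per library, with no further scaling to be seen in the whole numbers and unequal totals. Per the labels' protocols, libraries were made from 3′ ends with poly-T primers carrying molecular identifiers and amplified with T7 polymerase. HTSeq 0.9.1 is the counting tool, HISAT 0.1.5 and STAR 2.5.2b are the aligners, FastQC 0.11.7 and bcl2fastq 2.17.1.14 the other tools, and mm9 is the build, per the submitters' processing notes. Unknown, being not given in the sources used here, remain the aligner of each table, the annotation, the strand setting and the collapsing of identifiers. Without strand, reads of a gene and of an antisense partner cannot be told apart.

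Each table was fitted once, never joined, in edgeR 4.0.16 (R 4.3.3): 1 coefficient per group, TMM, filterByExpr with a minimum count of 10 (8961 and 9239 genes tested, 12 and 25 residual degrees of freedom), robust quasi-likelihood F tests, and Benjamini-Hochberg adjustment within a comparison at 0.05. The test of change with time of the concentration difference has 3 coefficients. The fit was tested on simulated data. Alternatives were DESeq2 1.42.0, RLE size factors, a filter of 10 counts in all, the compared groups alone, the replicate number as a block, the second number as a term, and each library left out. Deeper libraries carry less counting error; intervals are exact at 95% and cover counting error only.

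The members and lists were chosen with earlier results of these data known. Each member is named. Of every other list, up to 4 genes with the smallest adjusted p in a comparison are named, and for likeness the 3 genes with the highest r; 1 of these is not reported here. The lists are ligands, costimulatory genes, relays, regulators, other inhibitory genes, and markers of T, B, CD8 and NK, myeloid, red cell and platelet, regulatory and follicular helper cells. Promoters are RefSeq's on GRCm38.p6; 8 of the 9 members matched.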

Additional observations from a re-analysis of the deposited data

Results flagged for a closer look

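For 4 members the difference between high and low concentration in experiment 2 changed over the 4 times by edgeR's test of 3 coefficients. The adjusted p was 2.88e-06 for Cd5, whose difference was -0.45 ± 0.15 at 18 h, -0.81 ± 0.14 at 30 h, -0.22 ± 0.15 at 48 h and 0.74 ± 0.17 at 72 h. It was 1.49e-04 for Pdcd1, with -0.61 ± 0.24, -0.37 ± 0.20, -2.15 ± 0.25 and -1.25 ± 0.35 in the same order of times. For Ctla4 it was 0.00151, with 0.37 ± 0.22, 1.36 ± 0.20, 0.31 ± 0.20 and -0.03 ± 0.23. For Cd200 it was 0.0238, with 0.65 ± 0.31, 0.70 ± 0.30, -0.78 ± 0.36 and 1.26 ± 0.53. Cd5 and Cd200 thus lay on both sides of 0 at different times, Pdcd1 on 1 side throughout.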

How the results depend on the processing

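No member's difference that passed the test changed direction under an alternative listed in the methods. With DESeq2 the count of members called was 1 in place of 0 for the change of the CD62L difference with time in each experiment, and 1 in place of 0 for the sorts at 72 h in experiment 2. With the compared groups alone it was 1 in place of 0 for both changes with time, and 3 in place of 0 for the concentrations at 18 h. With the second number as a term it was 2 in place of 5 from 18 to 30 h, 1 in place of 2 for the concentrations at 48 h, and 2 in place of 4 at 72 h. The cause was not tested. Leaving out 1 library gave 0 to 1 for the change of the CD62L difference in experiment 1, 3 to 6 from 18 to 30 h, 3 to 5 from 30 to 48 h, 1 to 3 from 48 to 72 h, and 1 to 4 for the concentrations at 72 h. RLE scaling ended 0 calls and gained 2, and the filter of 10 counts ended 0 and gained 1. With the replicate number as a block the count of members called was the same in 22 of 22 comparisons (5 of 6 at 18 h against naive cells, for example), and the number of all genes called was 0.925 to 1.01 times that without it. Same-numbered libraries of different groups had a median correlation of -0.0117 in experiment 1 and 0.00154 in experiment 2. In these, 7 of 18 and 14 of 38 libraries correlated best with their own number. Of same-numbered pairs 15.6% in experiment 1 and 8.56% in experiment 2 were above 0.1, against 8.89% and 8.11% of other pairs. Such correlations cannot settle whether same-numbered libraries share a mouse or culture, which the labels do not state. Low counts limit Lag3, Havcr2, Tigit and Cd160.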
